A study of Oreochromis mossambicus with 6 samples.

Results

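The genes described here encode the insulin-like growth factors (IGFs), insulin, their receptors and binding proteins, and the phosphoinositide 3-kinase (PI3K) enzymes and Akt kinases that act below the receptors. They were taken from the table of counts by their symbols, case ignored, as those that begin with stems such as igf1, igf2, igfbp, irs and a digit, insr, pik3c, pik3r, akt1, akt2, pappa, grb10 or grb14, or that read ins, provided that they had at least 10 counts over all libraries. The rule gave 46 genes of the 32591 in the table, and 3 more symbols had too few counts. The counts came from gill filaments of wild-type male Mozambique tilapia (Oreochromis mossambicus), all of them hypophysectomized (Hx), that is, without a pituitary. Of these fish, 3 had received intraperitoneal injections of ovine prolactin (oPrl, 5 μg per g body weight) and 3 had received saline vehicle. The study took them from a larger experiment, in which the fish were kept in brackish water and injected repeatedly over several days. Since surgery removes every pituitary hormone, growth hormone and the signals for cortisol included, both groups lacked these as well, and none of the fish was fed during the experiment. The study used the comparison to find genes that prolactin (Prl) regulates in the gill.

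In vertebrates, Igf1 and Igf2 bind the Igf1 receptor, and insulin binds the insulin receptor. Both receptors are tyrosine kinases that phosphorylate insulin receptor substrates (Irs), to which a PI3K binds through its regulatory subunit. The catalytic subunit then phosphorylates a membrane lipid, which brings Akt to the membrane. In the extracellular fluid IGFs are held by binding proteins (Igfbp), which proteases of the pappalysin family can cleave. Growth hormone is the main driver of hepatic igf1 in fishes, and the gill expresses igf1 and IGF receptors of its own.

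Libraries held between 30516271 and 32959492 counts on genes in oPrl-injected fish and between 21643589 and 35976655 in vehicle-injected fish. Expression is given as CPM, that is, counts divided by library size, with a correction for library composition (TMM). CPM are not divided by gene length, so they compare 1 gene between fish and not 1 gene with another. Groups were compared over 24878 genes with edgeR's quasi-likelihood test, and log2 fold changes, given ± standard error, are oPrl over vehicle. A gene passed when its adjusted p was under 0.01 and its absolute log2 fold change was over 1. In bulk tissue, fewer cells of a type and less RNA per cell cannot be told apart. Markers of epithelium and ionocytes, 7 genes matched from 8 symbols, summed to between 3495 and 4671 CPM with oPrl and between 5936 and 6413 CPM with vehicle, without overlap. Krt8 and epcam made up most of each sum, with means of 1848 and 1467 CPM with oPrl, against 2726 and 2087 CPM with vehicle. None of the 7 passed in edgeR, and ca2, a carbonic anhydrase gene, passed as lower in DESeq2 (log2 fold change -1.83, adjusted p = 0.00249). Of the 7 genes 5 had log2 fold changes under 0, and the other two were foxi3b and atp6v1ab, the second of them 1.77 times its vehicle level and higher in every oPrl fish than in every vehicle fish. The sums for leukocytes, erythrocytes, endothelium, fibroblasts and skeletal muscle overlapped between groups. Vehicle replicate 3 had the highest sum of muscle markers, at 1275 CPM, and oPrl replicate 2 had the lowest, at 184 CPM. The myoglobin gene Mb weighed heavily in these sums, with 866 CPM in vehicle replicate 3 and 105 CPM in oPrl replicate 2. In vehicle replicate 2 it held 442 of 449 CPM. There the muscle genes ACTA1 and myhb were lowest of the 6 fish, at 0.852 and 0.71 CPM. In oPrl replicate 2 they were 12.4 and 17.8 CPM, so the muscle genes did not all rank the fish alike. The part of these lists in the results below was not tested.

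In oPrl-injected fish the PI3K regulatory subunit gene pik3r1 fell to 24.5% of its vehicle level and was the 1 gene of 46 that passed in edgeR, a share of 2.17%. Of all genes tested, 1.4% passed in either direction and 0.687% passed as lower. The adaptor genes irs2a, irs2b and grb10b were at 10% to 35% of their vehicle levels and igf1 was at 6.91 times its vehicle level, without passing in edgeR. All 5 receptor genes, akt1, akt2 and 3 of 4 class I catalytic subunits lay within 0.5 of 0 on the log2 scale. So did 13913 of all 24878 genes tested. At an adjusted p under 0.05, with no limit on the fold, pik3r1, irs2a, irs2b, grb10b, IGFBP3 and pik3cd were lower, which is 13% of the 46 genes, against 2.83% of all genes tested. At that level igf1 was the 1 gene that was higher, 2.17% of the 46 against 3.28% of all genes. With an unadjusted p under 0.05 in edgeR there were 14 of the 46 in either direction, or 30.4%, against 21.7% of all genes. DESeq2, the tool of the study, placed 6 of the 46 past the thresholds of 0.01 and 1. These were pik3r1, irs2a, irs2b, grb10b and IGFBP3 as lower, 10.9% against 2.94% of all genes, and igf1 as higher, 2.17% against 3.08%. Of all genes tested, 3981 had no adjusted p in DESeq2 and so could not pass, compared with 0 of the 46. The DESeq2 shares of all genes given here still count them. The groups did not overlap in 21 of the 46 genes. In 13 of them every oPrl fish was below every vehicle fish (28.3%, against 12.7% of all genes), and in 8 every oPrl fish was above (17.4%, against 16.3%). Over the 46 genes the median log2 fold change was -0.05, and it was 0.02 over all genes tested. Of the 46, 29 lay within 0.5 of 0 on that scale, beside the 13913 of all 24878 genes given above.

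**Figure D1:**
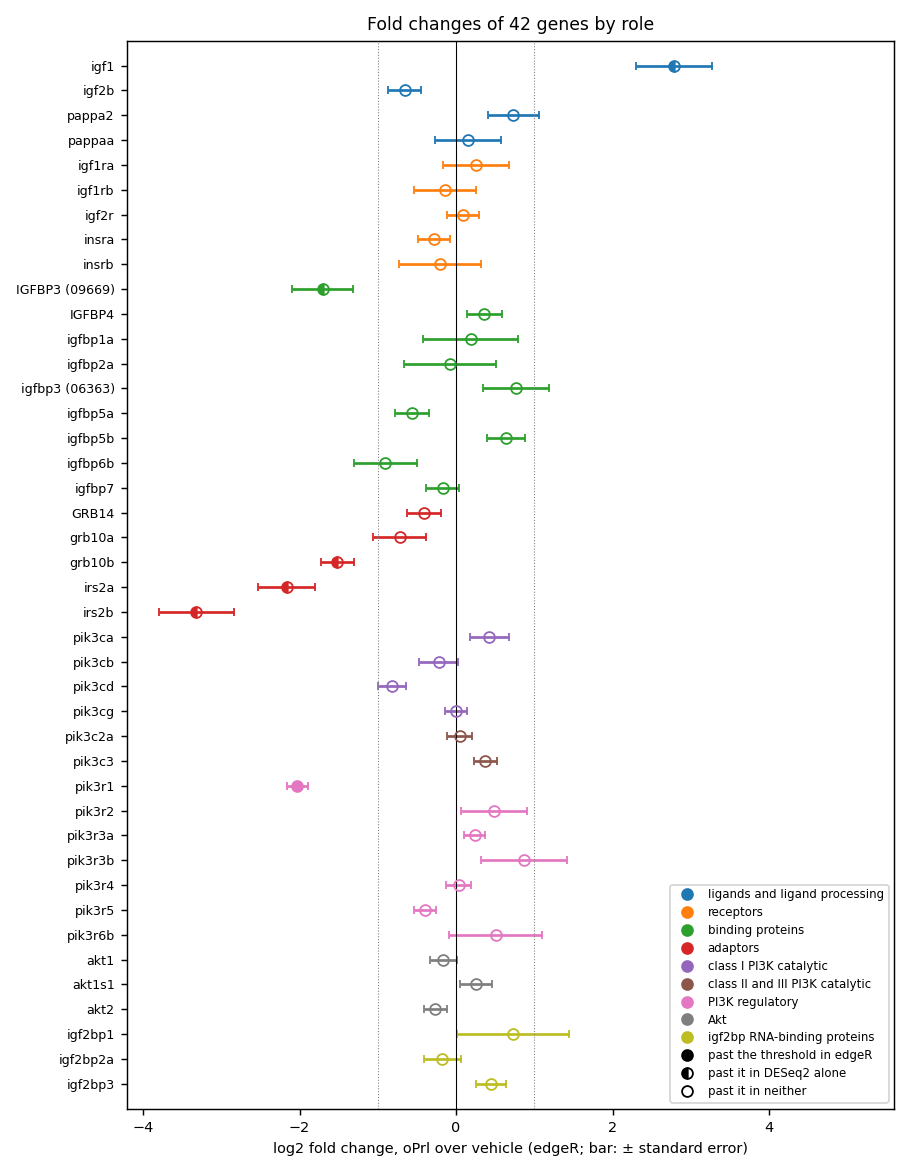
Log2 fold changes (oPrl over vehicle, edgeR) with standard errors for 42 of the 46 genes, coloured by role, with dotted lines at the fold threshold of 1 in each direction. The adaptors all lie left of 0, pik3r1 lies at -2.03, with the other PI3K regulatory subunits between -0.4 and 0.87, and igf1 lies at 2.78. The digits beside IGFBP3 and igfbp3 are the ends of their gene IDs.

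Among the ligands, igf1 (ENSONIG00000017800) had 168, 58 and 171 counts in oPrl replicates 1, 2 and 3, against 13, 19 and 12 counts in vehicle replicates 1, 2 and 3. In CPM these were 4.97, 1.78 and 4.84 in the oPrl fish, against 0.526, 0.54 and 0.611 in the vehicle fish. Every oPrl fish was thus above every vehicle fish, and the vehicle fish lay close together, while oPrl replicate 2 was well below the other oPrl fish. Igf1 is the growth factor that carries much of the action of growth hormone. Its mean was 3.86 ± 1.8 CPM in oPrl fish, against 0.559 ± 0.0453 CPM in vehicle fish (± SD, n = 3 each), a ratio of 6.91. The log2 fold change of igf1 was 2.78 ± 0.48, with an adjusted p of 0.0193 in edgeR, above the threshold, and of 5.93e-06 in DESeq2. Without oPrl replicate 2 it was 3.13 and passed in edgeR (adjusted p = 0.00738), and without any other library it did not (adjusted p up to 0.0916).

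The liver is the main source of circulating Igf1, and 3 liver marker genes tested, from 6 symbols, had a sum of 0.537 to 1.54 CPM in oPrl-injected fish and 0.688 to 1.32 CPM in vehicle-injected fish. Markers of fibroblasts, which also express Igf1 in mammals, summed to 2183, 977 and 1695 CPM in oPrl replicates 1 to 3, against 984, 1072 and 2186 CPM in vehicle replicates 1 to 3. The sums overlapped between groups, and the part of either cell type in the level of igf1 was not tested.

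The second growth factor, igf2b (ENSONIG00000039552), had 31.1, 35.4 and 21.6 CPM in the oPrl fish, against 43.6, 45.1 and 50.1 CPM in the vehicle fish. The groups did not overlap and its direction was opposite to that of igf1, but it did not pass (log2 fold change -0.66 ± 0.21, adjusted p = 0.122, edgeR). Insulin (ins) had 1 count in all, in oPrl replicate 2, and was below the minimum. The IGF-binding-protein protease genes are pappaa and pappa2. The level of pappa2 was 2.34 ± 0.141 CPM in oPrl fish, against 1.41 ± 0.301 CPM in vehicle fish (± SD, n = 3 each), without overlap but also without passing (log2 fold change 0.73 ± 0.33, adjusted p = 0.247, edgeR). For pappaa the values were 4.69 ± 1.83 CPM in oPrl fish, against 4.2 ± 1.52 CPM in vehicle fish (± SD, n = 3 each), a difference within the spread between fish.

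**Figure D2:**
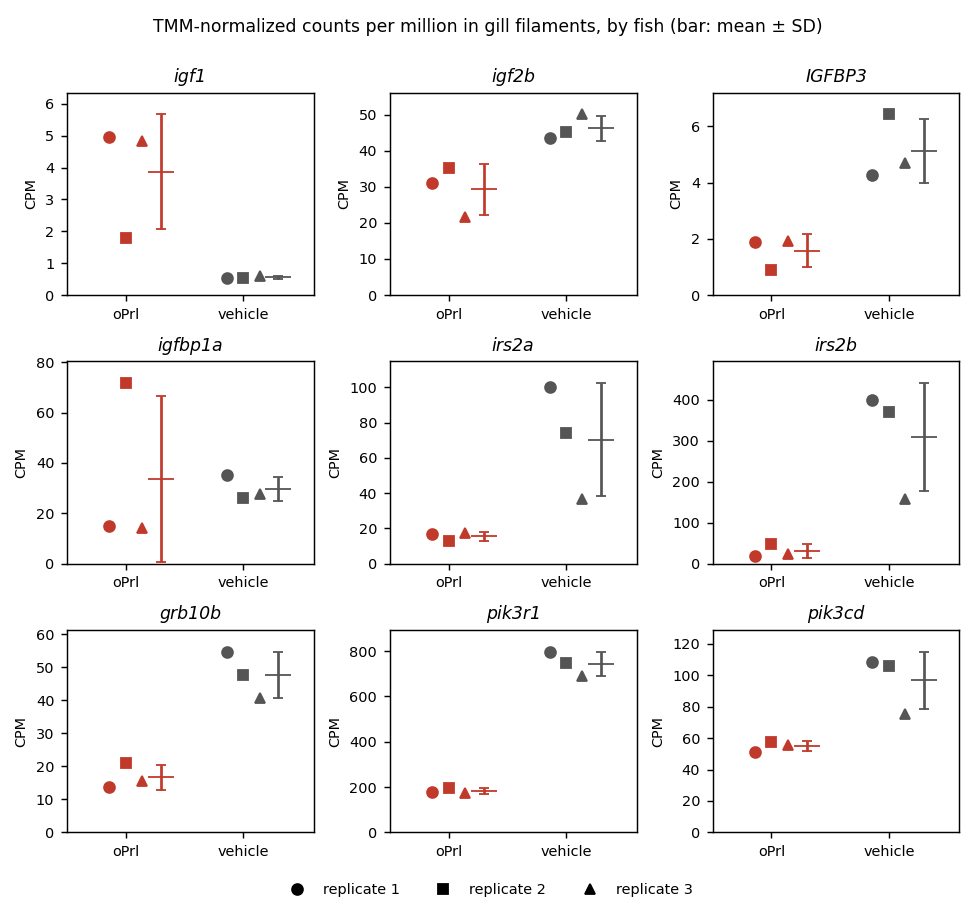
TMM-normalized CPM in each fish for 9 genes, oPrl left and vehicle right, with the symbol shape giving the replicate and the bar the mean ± SD. The groups do not overlap except in igfbp1a, where oPrl replicate 2 stands at 71.7 CPM above all other fish.

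None of the 5 receptor genes passed, where 1.4% of all genes did. None had groups without overlap, where 12.7% of all genes were lower and 16.3% higher without overlap. Their log2 fold changes lay between -0.28 and 0.25. The insulin receptor genes insra and insrb had 60.4 ± 2.57 and 15.1 ± 0.718 CPM in oPrl fish, against 73.5 ± 18.1 and 17.4 ± 11.5 CPM in vehicle fish (± SD, n = 3 each). The spread in the vehicle group came from vehicle replicate 3, in which insrb was 4.68 CPM, against 26.9 and 20.7 CPM in vehicle replicates 1 and 2. That library had the lowest vehicle value in all 5 receptor genes, igf1ra (2.44 CPM), igf1rb (1.73 CPM) and igf2r (70.5 CPM) included. Igf2r, in mammals a receptor that carries Igf2 to lysosomes, had 91.5, 116 and 86.4 CPM in the oPrl fish and 108, 98 and 70.5 CPM in the vehicle fish. Without vehicle replicate 3 the log2 fold change was -0.65 for insrb and -0.47 for insra, neither of which passed (adjusted p = 0.0939 and 0.0807, edgeR). With all libraries these values were -0.21 ± 0.53 and -0.28 ± 0.2 (adjusted p = 0.868 and 0.485, same test).

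The duplicated Igf1 receptor genes were also compared with each other within each fish. On the log2 scale, igf1rb over igf1ra was -1.01, -1.28 and -1.13 in oPrl replicates 1 to 3, against -0.67, -0.91 and -0.5 in vehicle replicates 1 to 3. The ratio was lower in every oPrl fish than in every vehicle fish, by 0.45 on average, although neither gene alone separated the groups. Ratios of insrb over insra, pappa2 over pappaa and pik3r3b over pik3r3a overlapped between groups. Those of the irs2, grb10, igfbp5 and igfbp3 pairs did not. How often such ratios separate the groups over all duplicated genes was not computed.

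Binding proteins had values in both directions. Of 9 genes, none passed in edgeR, where 1.4% of all genes did. In DESeq2 1 passed as lower, or 11.1%, against 2.94% of all genes, and it was IGFBP3 (ENSONIG00000009669). Its values were 1.89, 0.891 and 1.92 CPM in the oPrl fish, against 4.25, 6.42 and 4.68 CPM in the vehicle fish. Every oPrl fish lay below every vehicle fish, at 30.7% of the vehicle mean. The log2 fold change of IGFBP3 was -1.7 ± 0.39, with an adjusted p of 0.0467 in edgeR and 0.000287 in DESeq2. Igfbp3 is the main IGF carrier of mammalian plasma, where it forms a complex with Igf1. The table gives the lower-case symbol igfbp3 to another gene (ENSONIG00000006363), at 2.4, 2.4 and 1.58 CPM in the oPrl fish and 1.78, 0.767 and 1.22 CPM in the vehicle fish. That gene had a fold change of the opposite sign and did not pass (log2 fold change 0.76 ± 0.42, adjusted p = 0.355, edgeR). The log2 ratio of igfbp3 over IGFBP3 was 0.34, 1.43 and -0.28 in the oPrl fish, against -1.25, -3.07 and -1.94 in the vehicle fish. It was higher in every oPrl fish, by 2.58 on average.

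The igfbp5 duplicates likewise had fold changes of opposite sign. Igfbp5a had 270, 153 and 208 CPM in the oPrl fish, against 350, 282 and 302 CPM in the vehicle fish. Igfbp5b had 14, 9.06 and 10.7 CPM in the oPrl fish, against 7.37, 6.05 and 8.35 CPM in the vehicle fish. The groups did not overlap in either gene, igfbp5a being lower with oPrl and igfbp5b higher, and neither passed (log2 fold changes -0.57 ± 0.22 and 0.64 ± 0.25, adjusted p = 0.195 and 0.19, edgeR). Their log2 ratio, igfbp5b over igfbp5a, was -4.27, -4.08 and -4.27 in the oPrl fish, against -5.57, -5.54 and -5.18 in the vehicle fish, a mean difference of 1.22 without overlap.

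The gene igfbp1a (ENSONIG00000006369), singled out after its values were seen, turned on 1 library. In fishes and mammals Igfbp1 is known as a binding protein that rises in fasting and stress. Its values were 15, 71.7 and 14.3 CPM in oPrl replicates 1 to 3, against 35.2, 25.9 and 27.7 CPM in vehicle replicates 1 to 3. Thus 2 of the oPrl fish were below all vehicle fish and the other was the highest of the 6. The log2 fold change of igfbp1a was 0.19 ± 0.61 with all libraries (adjusted p = 0.899, edgeR) and -1.01 without oPrl replicate 2 (adjusted p = 0.0385, same test). In the same fish, the Akt inhibitor gene trib3, a pathway gene outside the rule, was also the highest of the 6, with 9.05, 33 and 12.3 CPM in the oPrl fish and 23.9, 19.5 and 13.2 CPM in the vehicle fish. Trib3 was picked with its values known, and oPrl replicate 2 was the highest of the oPrl fish alone in 41.2% of all genes tested. How often it was the highest of the 6 was not computed.

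The other binding proteins did not separate the groups. Igfbp6b was 30.6 ± 13 CPM in oPrl fish, against 57.4 ± 25.8 CPM in vehicle fish (± SD, n = 3 each), with the highest value, 86.5 CPM, in vehicle replicate 3. The log2 fold changes of IGFBP4, igfbp7 and igfbp2a were 0.36, -0.17 and -0.08. The genes IGFBP1 (ENSONIG00000009667) and igfbp2b had 1 and 5 counts in all and were below the minimum of 10, while the genes just above it, pik3r3b and igf2bp1, had 46 counts each.

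After TMM normalization the log2 fold changes of all 5 adaptor genes were under 0, with a median of -1.52, and 48.5% of all genes tested were under 0. In 4 of the 5 every oPrl fish was below every vehicle fish, against 12.7% of all genes. None passed in edgeR, and 3 passed as lower in DESeq2, against 2.94% of all genes, while grb10a and GRB14 passed in neither. The irs2 duplicates had the lowest levels relative to vehicle. Irs2 is 1 of the main docking proteins through which insulin and IGF receptors engage PI3K, and in mammalian liver it is known to rise in fasting. For irs2b (ENSONIG00000014362) the oPrl fish had 19.9, 49.2 and 23.8 CPM, against 399, 370 and 157 CPM in the vehicle fish. The highest oPrl value was thus less than the lowest vehicle value, and the oPrl mean was 10% of the vehicle mean. Relative to vehicle, irs2b had a log2 fold change of -3.32 ± 0.48, with an adjusted p of 0.0111 in edgeR and 9.34e-12 in DESeq2. Omitting any 1 library gave values of -3.82 to -3.08, and irs2b passed in none of these fits (adjusted p of 0.0119 to 0.0573, edgeR).

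The paralog irs2a (ENSONIG00000011968) had 16.6, 12.8 and 17.6 CPM in the oPrl fish, against 100, 74.3 and 36.6 CPM in the vehicle fish. Again the groups did not overlap, and vehicle replicate 3 was nearest to the oPrl fish. Its log2 fold change was -2.17 ± 0.36 (adjusted p = 0.0175 in edgeR and 2.03e-07 in DESeq2). Without vehicle replicate 3 it was -2.47 and passed in edgeR (adjusted p = 0.00957), and without any other library it did not (adjusted p up to 0.0682). The oPrl fish ranked differently for the paralogs, and the vehicle fish ranked alike. In oPrl replicate 2, irs2b was highest and irs2a lowest of the oPrl fish, so that the log2 ratio of irs2b over irs2a was 1.94 there, compared with 0.26 and 0.43 in oPrl replicates 1 and 3. In the vehicle fish the ratio was 1.99, 2.32 and 2.1.

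The adaptors grb10a, grb10b and GRB14 belong to a family that in mammals binds to active insulin and IGF receptors and inhibits them. For grb10b (ENSONIG00000007158) the oPrl fish had 13.6, 20.9 and 15.5 CPM, against 54.7, 47.5 and 40.7 CPM in the vehicle fish. The oPrl mean was 35% of the vehicle mean, with no overlap. The log2 fold change of grb10b was -1.52 ± 0.22, with an adjusted p of 0.0103 in edgeR, just above the threshold, and 1.1e-08 in DESeq2. In edgeR grb10b passed without oPrl replicate 2 (adjusted p = 0.00948), and without any other library it did not (adjusted p up to 0.0573). Its paralog grb10a was 3.39 ± 1.25 CPM in oPrl fish, against 5.58 ± 0.83 CPM in vehicle fish (± SD, n = 3 each), also without overlap, but did not pass (log2 fold change -0.72 ± 0.34, adjusted p = 0.269, edgeR). GRB14 was 16.3 ± 2.29 CPM in oPrl fish, against 21.6 ± 4.79 CPM in vehicle fish (± SD, n = 3 each), and its groups overlapped. The adaptors placed as lower by DESeq2 thus included both kinds, those that pass the receptor signal on and 1 that holds it back.

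**Figure D3:**
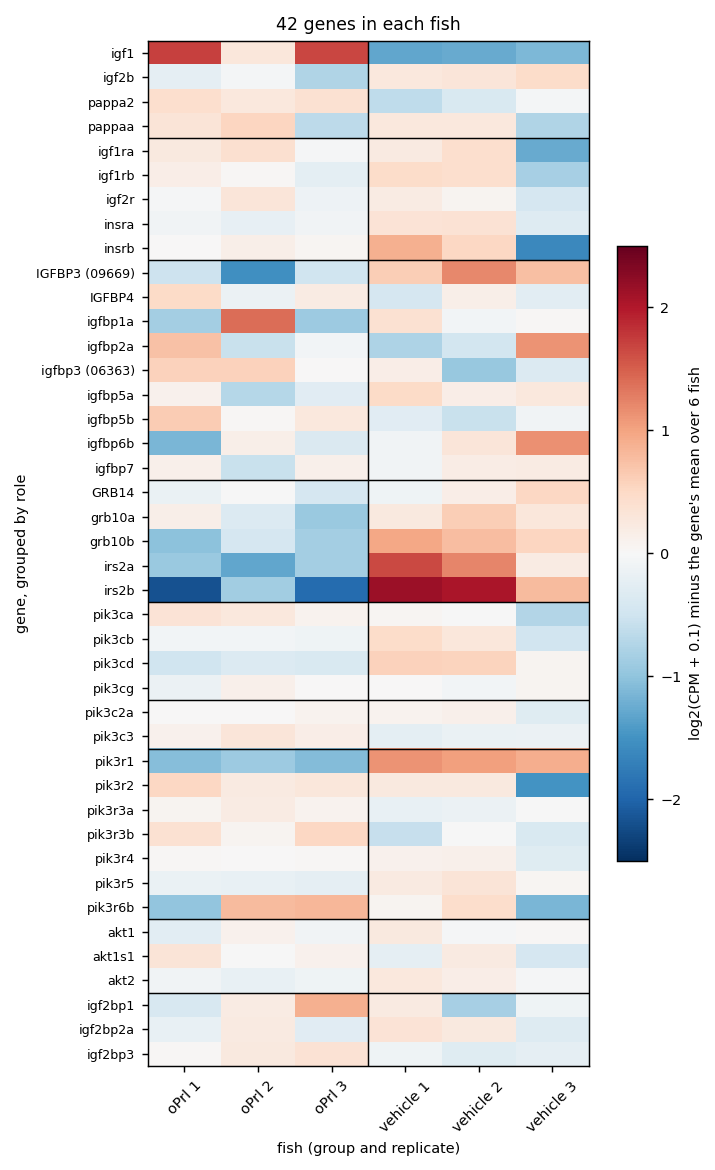
Each row is 1 of 42 genes, grouped by role between black lines, and each column 1 fish, with colour showing log2(CPM + 0.1) minus that gene's mean over the 6 fish (red above, blue below). The block of irs2a, irs2b and grb10b and the row of pik3r1 are blue in the 3 oPrl fish and red in the vehicle fish, palest in vehicle replicate 3, while vehicle replicate 3 is blue in all 5 receptor rows.

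Of the 7 regulatory subunit genes, 1 passed, or 14.3%, against 1.4% of all genes. For pik3r1 (ENSONIG00000011065) the oPrl fish had 176, 197 and 174 CPM, against 796, 746 and 688 CPM in the vehicle fish. Both groups were tight and lay far apart, at 182 ± 12.6 CPM in oPrl fish, against 743 ± 54 CPM in vehicle fish (± SD, n = 3 each). The product of pik3r1 both stabilizes the class I catalytic subunits and keeps them inactive until it binds a phosphorylated receptor or Irs. The log2 fold change of pik3r1 was -2.03 ± 0.14 (adjusted p = 0.00132 in edgeR and 2.23e-41 in DESeq2). Omitting any 1 library gave values of -2.09 to -1.99. The adjusted p in edgeR was then above 0.01 without oPrl replicate 1 (0.0107), without oPrl replicate 3 (0.0151) and without vehicle replicate 1 (0.0153), where edgeR passed 28, 5 and 0 genes of the whole table. In the fit without vehicle replicate 1, 4154 genes had an unadjusted p under 0.05.

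None of the other regulatory subunits passed, and their log2 fold changes lay between -0.4 and 0.87. The subunits pik3r2 and pik3r3a, of the same class as pik3r1, had log2 fold changes of 0.48 ± 0.42 and 0.24 ± 0.14 (adjusted p = 0.573 and 0.375, edgeR). For pik3r3a the oPrl fish had 51.2, 55.7 and 51.4 CPM, against 42.6, 43.7 and 48.1 CPM in the vehicle fish, slightly higher with oPrl and without overlap. For pik3r2 the groups overlapped, with 5.75 CPM in vehicle replicate 3 and 19.4 and 19.6 CPM in vehicle replicates 1 and 2. Without vehicle replicate 3 its log2 fold change was 0.11. The sparse pik3r3b had 0.313 ± 0.062 CPM in oPrl fish, against 0.167 ± 0.0544 CPM in vehicle fish (± SD, n = 3 each). The subunits pik3r5 and pik3r6b serve the catalytic subunit that G-protein-coupled receptors activate in leukocytes. For pik3r5 the oPrl fish had 39.2, 38.8 and 37.6 CPM, against 51.8, 55 and 45.4 CPM in the vehicle fish, lower without overlap but not past the threshold (log2 fold change -0.4 ± 0.14, adjusted p = 0.162, edgeR). Pik3r4, the partner of the class III enzyme, was at 38 ± 0.471 CPM in oPrl fish, against 37.1 ± 5.77 CPM in vehicle fish (± SD, n = 3 each).

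None of the class I catalytic subunits passed, where 1.4% of all genes did in edgeR. The 1 with an adjusted p under 0.05 was pik3cd (ENSONIG00000002388), the subunit enriched in mammalian leukocytes. The oPrl fish had 51.5, 57.3 and 55.8 CPM, against 109, 106 and 75.7 CPM in the vehicle fish. The groups did not overlap, and vehicle replicate 3 was again the nearest to the oPrl fish. For pik3cd the log2 fold change was -0.82 ± 0.18 (adjusted p = 0.0398 in edgeR), under the fold threshold in both tools, with an adjusted p of 0.000527 in DESeq2. Leukocyte markers, 6 genes tested from 11 symbols, summed to 1486, 1588 and 1686 CPM in oPrl replicates 1 to 3, against 1594, 1533 and 1922 CPM in vehicle replicates 1 to 3. Of these 6 genes 5 had log2 fold changes under 0. The most abundant, ptprc, coro1a and lcp1, had log2 fold changes of -0.15, -0.03 and 0.28, and their groups overlapped. Only the macrophage receptor gene csf1ra separated the groups. It had 166, 234 and 192 CPM in the oPrl fish, against 291, 277 and 317 CPM in the vehicle fish (log2 fold change -0.58 ± 0.17, adjusted p = 0.0937 in edgeR and 0.0151 in DESeq2). The part of leukocytes in the level of pik3cd was not tested. The other leukocyte-enriched subunit, pik3cg, was level at 72.2 ± 7.11 CPM in oPrl fish, against 72.1 ± 3.11 CPM in vehicle fish (± SD, n = 3 each).

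The widely expressed subunits pik3ca and pik3cb had log2 fold changes of 0.42 ± 0.25 and -0.22 ± 0.24 (adjusted p = 0.385 and 0.661, edgeR). For pik3ca all oPrl fish were above all vehicle fish, with 15.8, 15.1 and 13.3 CPM, against 13, 12.4 and 7.48 CPM. Among the other classes, pik3c2a had 138, 138 and 145 CPM in the oPrl fish and 146, 150 and 111 CPM in the vehicle fish, which overlapped. Pik3c3, the class III enzyme of autophagy and endosomes, had 31.6, 36.3 and 32.9 CPM in the oPrl fish, against 24.9, 26.2 and 26.6 CPM in the vehicle fish. It was higher in every oPrl fish but did not pass (log2 fold change 0.37 ± 0.14, adjusted p = 0.19, edgeR).

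None of akt1, akt2 and akt1s1 passed, where 1.4% of all genes did in edgeR. For akt2, which encodes 1 of the Akt kinases and in mammals serves the insulin response, the oPrl fish had 30.7, 28.6 and 30.1 CPM, against 39, 36.5 and 32.1 CPM in the vehicle fish. The groups did not overlap, where 12.7% of all genes were lower without overlap. The log2 fold change of akt2 was -0.27 ± 0.15 (adjusted p = 0.358, edgeR). For akt1 the groups overlapped at 28 ± 3.76 CPM in oPrl fish, against 31.4 ± 3.32 CPM in vehicle fish (± SD, n = 3 each). The gene akt1s1, an Akt substrate and inhibitor of mTOR, had 46.9, 37.3 and 40.6 CPM in the oPrl fish and 32.2, 43.9 and 28.2 CPM in the vehicle fish, which overlapped.

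The symbol rule also took in 3 igf2bp genes, whose products bind mRNA, that of Igf2 among others, and are not parts of the receptor pathway. Igf2bp2a had 17.9, 24 and 16.8 CPM in the oPrl fish and 25.8, 24.2 and 16.3 CPM in the vehicle fish, which overlapped. Igf2bp3 was 12.6 ± 1.44 CPM in oPrl fish, against 9.3 ± 0.657 CPM in vehicle fish (± SD, n = 3 each), higher in every oPrl fish without passing (adjusted p = 0.23, edgeR). Igf2bp1 was at 0.509 CPM or less in every fish.

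A list of further pathway genes, from the kinases below PI3K to FoxO factors and growth hormone receptors, held 53 genes tested. Of these, 0 passed as higher and 1 passed as lower in edgeR. The share was 1.89%, against 0.687% of all genes that passed as lower and 1.4% in either direction. Their median log2 fold change was -0.18. At an unadjusted p under 0.05 there were 15 of 53 in either direction, or 28.3%, against 21.7% of all genes tested. DESeq2 placed 0 as higher and 4 as lower past the thresholds, the lower ones being 7.55% against 2.94% of all genes. The gene that passed in edgeR was trib1, which encodes a pseudokinase of the same family as the Akt inhibitor Trib3. It had 65.3, 72 and 53.2 CPM in the oPrl fish, against 217, 185 and 214 CPM in the vehicle fish. Its log2 fold change was -1.69 ± 0.17 (adjusted p = 0.00394, edgeR). The others in DESeq2 were SGK1, rps6kb1a and foxo1a. SGK1 encodes a kinase that is activated below PI3K, and it had 71.1, 202 and 81.1 CPM in the oPrl fish, against 602, 516 and 485 CPM in the vehicle fish. The groups of SGK1 did not overlap, at a log2 fold change of -2.18 ± 0.4 (adjusted p = 0.0239 in edgeR and 1.54e-06 in DESeq2). Foxo1a encodes a transcription factor that Akt excludes from the nucleus, and it had 72.5, 114 and 72.2 CPM in the oPrl fish, against 196, 201 and 123 CPM in the vehicle fish. This was a log2 fold change of -1.01 ± 0.26 (adjusted p = 0.0713 in edgeR and 0.00426 in DESeq2). The S6 kinase gene rps6kb1a was 12 ± 2.67 CPM in oPrl fish, against 24.3 ± 3.31 CPM in vehicle fish (± SD, n = 3 each), and its paralog rps6kb1b did not share the direction (log2 fold changes -1.02 ± 0.22 and 0.33 ± 0.25, adjusted p = 0.0397 and 0.496, edgeR). The growth hormone receptor genes in the table, ghr and ghr1, had log2 fold changes of -1.1 ± 0.39 and 0.2 ± 0.71 and did not pass (adjusted p = 0.159 and 0.909, edgeR).

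**Figure D4:**
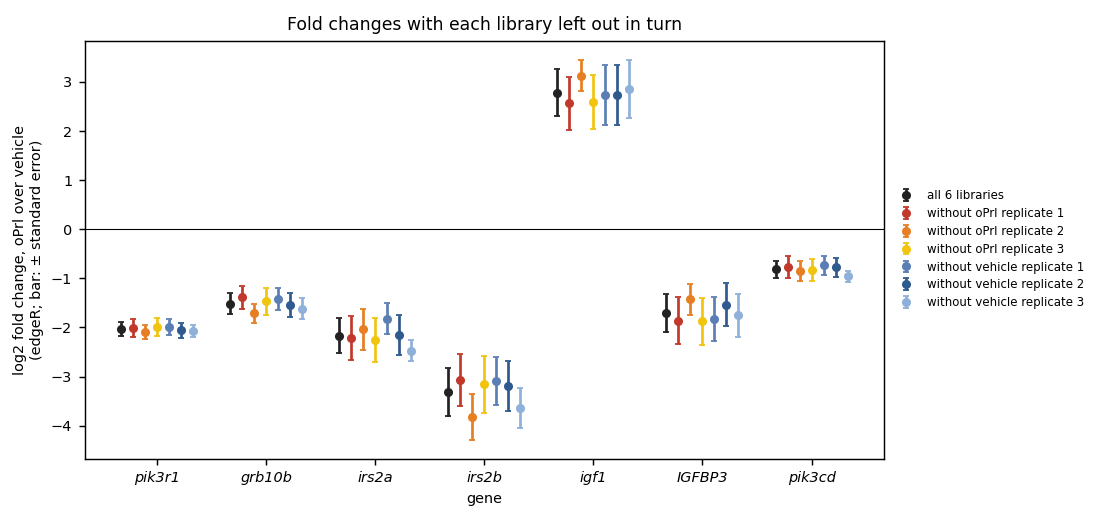
Log2 fold changes (oPrl over vehicle, edgeR) with standard errors for 7 genes, with all 6 libraries in black and the fits that omit 1 library in colour. The groups of all 7 genes do not overlap, so leaving out 1 library could hardly change a direction. The values of pik3r1 lie between -2.09 and -1.99, and those of irs2b spread widest, between -3.82 and -3.08.

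The median coefficient of variation over the 46 genes was 14.7% with oPrl and 21% with vehicle, compared with 24.4% and 25.9% over all genes tested. Neither these medians nor the shares of all genes given above were matched for abundance. Of the 24878 genes tested, edgeR's own expression filter kept 20080. Vehicle replicate 3 had the lowest value of its group in 23 of the 46 genes, or 50%, compared with 38.1% of all genes tested. It was also the vehicle library with the fewest counts. Of the oPrl fish, replicate 2 lay farthest from its group, with a median absolute deviation of 0.134 on the log2(CPM + 1) scale, against 0.12 and 0.0634 in oPrl replicates 1 and 3. This deviation was larger in every vehicle fish, at 0.178, 0.149 and 0.188 in vehicle replicates 1 to 3. With both oPrl replicate 2 and vehicle replicate 3 left out, a choice made after the values were seen, edgeR passed 4 of the 46 genes (pik3r1, grb10b, irs2a and irs2b), and 1.2% of all 24046 genes tested in that fit.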

How the data were processed

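Gill filament RNA of 6 fish was sequenced, 3 for each injection. The authors converted base calls with bcl2fastq 2.20, trimmed adapters with Trimmomatic 0.36 and aligned the reads to the Nile tilapia genome with STAR 2.5.2b. The authors deposited raw counts of unique reads per gene, which featureCounts gave. Build, annotation release and strandedness of the counting were not given in the sources used here. Whether reads of overlapping genes, or of a gene and an antisense partner, were kept apart is not known. Reads of Mozambique tilapia were thus counted on the genes of a related species. 1 row without a gene ID held up to 0.135% of a library's counts and was left out.

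Genes with at least 10 counts over the 6 libraries were tested with edgeR 4.0.16 (R 4.3.3) after TMM normalization, by the quasi-likelihood test, and p-values were adjusted by Benjamini-Hochberg over 24878 genes. The standard error was the absolute log2 fold change divided by the square root of the F statistic. The thresholds were those of the study, an adjusted p under 0.01 with an absolute log2 fold change over 1. DESeq2 1.42.0 was run as an alternative. CPM were counts scaled by library size and TMM factor. The fit was checked on simulated counts. No pair of libraries of 1 group agreed within sampling noise (chi-square per degree of freedom of at least 26.3). Other normalizations and count filters, a robust fit, a replicate block, a looser threshold and each library left out were tried.

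The genes and the lists were chosen with earlier results of these data known. Among the 46 genes, values are given in full for those past the thresholds in edgeR or DESeq2, for the gene with the most CPM in each role, for the ligands, and for genes that averaged 1 CPM or more with an absolute log2 fold change over 1 and no overlap between groups. Others are given by role. Some of these, among them igfbp5b, igfbp3, pik3r3a, pik3r5, pik3ca, pik3c3 and akt2, have values per fish without meeting these criteria. They were picked with the values known, and all those named but igfbp3 have groups without overlap. Of the further pathway genes the rule took those past the thresholds in edgeR. SGK1, foxo1a, rps6kb1a, rps6kb1b, trib3, ghr and ghr1 were added outside that rule, with their values known. Of the 46 genes, 4 enter the counts and medians but are not reported here. In the lists of pathway genes and cell markers, a fish suffix was allowed after each symbol, with a digit taken as a suffix only after a letter. Promoter motifs, sequences and coordinates were not analysed here.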

Additional observations from a re-analysis of the deposited data

How the results depend on the processing

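With edgeR's default fit, 1 of the 46 genes passed. The number was 2 with DESeq2 size factors or with edgeR's own expression filter, 3 with scaling by library totals or with no count filter beyond a total of 1, 6 with DESeq2, 7 at an adjusted p under 0.05 with no fold limit, and 4 without oPrl replicate 2 and vehicle replicate 3. With 1 library left out it ranged from 0 to 3. The number over the whole table moved as well, and was 349 in the default fit. It was 341 with DESeq2 size factors, 394 with edgeR's own filter, 505 with library totals and 477 with no count filter beyond 1. DESeq2 passed 1496 genes, and 1520 had an adjusted p under 0.05 in edgeR. Without oPrl replicate 2 and vehicle replicate 3 it was 288, and with 1 library left out it ranged from 0 to 215. Of the further pathway genes, 1 passed in edgeR and 4 in DESeq2. With the replicate number as a block, 0 of the 46 genes passed (10 had an unadjusted p under 0.05, and DESeq2, without a block, gave 6), the log2 fold change of pik3r1 was -2.03 (adjusted p = 0.0118), and 30 genes passed over the whole table. The sample labels number the fish and do not say that same-numbered fish were paired. Deviations of same-numbered fish from their group means correlated at -0.0922 to -0.0128. Those of differently numbered fish correlated at -0.0449 to 0.131. Such deviations sum to 0 within each group of 3, so these values are not independent of each other. None of those for same-numbered fish was above 0. Whether such fish were handled together is not known from the labels. Under the block, igfbp1a was at -0.28. Library totals alone moved the median of all genes to 0.19, compared with 0.02 under TMM, and gave 358 higher and 147 lower genes in place of 178 and 171. Under them 5 of the 46 genes changed sign (igf1rb, igfbp2a, igfbp7 and akt1 among them), and under DESeq2 size factors 3 did (pik3cg and pik3r4 among them), none of which passed in any of these fits. Depth limits igf1 most among the genes named in full, with 12 to 19 counts per vehicle library.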
